A study of Mus musculus with 2 samples.

Results

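Collagen genes were followed in 2 RNA sequencing libraries of mouse 46C embryonic stem cells, a line with a fluorescent reporter at the Sox1 locus. The members are the rows whose Ensembl identifier belongs, in the GENCODE annotation of GRCm38, to a protein-coding gene named Col, a number, a and a number with nothing after it. There were 44 such genes among 46983 rows. The first library came from cells carrying a short hairpin against the long noncoding RNA linc1557, cloned in pLKO.1, and the second from cells with a control hairpin. Both had been infected with virus and selected with puromycin, and stably infected clones were picked, so a difference between clones and an effect of the hairpin cannot be told apart. Culture was on feeders, in medium with serum and leukaemia inhibitory factor. The labels do not say whether feeder cells were removed before RNA was taken, or how many clones went into a library.

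Collagens are secreted or membrane proteins whose chains wind into a triple helix of repeated glycine-X-Y units. Fibrillar collagens form the banded fibres of connective tissue, type IV collagen forms the sheet of basement membranes, and type VI collagen forms beaded filaments between cells and fibres. FACIT collagens sit on the surface of fibrils, multiplexins lie in basement membrane zones, and transmembrane collagens stay anchored in the cell surface. Fibroblasts are the classical source of types I, III, V and VI, whereas type IV is made early in the embryo, by endoderm among other cells.

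Depth was 26693282 counts for the knockdown library and 23146210 for the control library. With 1 library per group there is nothing to measure replicate spread with, and no test was possible. Ratios are knockdown over control after TMM scaling, and bracketed 95% intervals cover counting error only. A gene entered when it had a count scaled to library size (CPM) of at least 1 in either library, and its call, higher or lower, needed a difference of at least 2-fold and an interval that left out 1. Levels are TMM-scaled RPKM, which are CPM divided by gene length in kilobases. Stem cell markers were high in both libraries, with Pou5f1 at 147 RPKM under knockdown and 134 RPKM in the control library. None of 10 such markers was called, but 9 had ratios above 1 (8 with scaling by library totals), with a median log2 ratio of 0.37 and the largest, 0.85, for Tdgf1. Their summed level was 1504 RPKM under knockdown and 1124 RPKM in the control library, and the part of this in the collagen ratios was not tested. No row was matched by name to linc1557, so the knockdown itself is not checked here.

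Most well-expressed collagen genes had lower counts under the linc1557 hairpin. The only collagen gene called higher, Col13a1, was weakly expressed (1.70 RPKM under knockdown and 0.342 RPKM in the control library). Of the 33 collagen genes that entered, 19 were lower and 1 was higher, which left 13 without a call. Over all 15850 genes that entered, 9.48% were lower and 4.68% were higher. The median log2 ratio was -1.37 for the collagen genes and 0.02 for all genes. Of the 33, 31 reached the minimum in both libraries, while Col24a1 and Col23a1 reached it in the control library alone and so had to differ. With no filter on low counts, 23 of the 42 collagen genes that had a ratio were lower and 2 were higher, against 9.55% and 4.73% of 21924 genes. At 5 CPM as the minimum, 17 of 22 collagen genes were lower and 1 was higher, against 6.31% and 2.86% of all genes. With a 4-fold threshold in place of 2-fold, 6 were lower (2.45% of all genes) and 1 was higher (0.959%). With 1.5-fold, 23 were lower (16.4%) and 3 were higher (11.5%). In bulk RNA, fewer cells of a type and less RNA per cell cannot be told apart.

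Collagen genes together took 16657 counts in the knockdown library, which is 0.0624% (0.0615 to 0.0634) of the total, and 43113 counts in the control library, which is 0.186% (0.185 to 0.188, Wilson intervals). After TMM scaling, the summed collagen counts were 2.75-fold lower (2.70 to 2.80). The classes differed in size of change. Summed counts were 4.11-fold lower for type VI (3.86 to 4.37), 3.41-fold for FACIT collagens (3.24 to 3.59), 3.32-fold for fibrillar collagens (3.23 to 3.43), 2.60-fold for type IV (2.48 to 2.74), 2.45-fold for network, anchoring and other collagens (2.24 to 2.68) and 1.67-fold for multiplexins (1.61 to 1.74). The transmembrane class was the exception, with 262 counts under knockdown and 158 in the control library. Col13a1 held 201 of the 262. These sums weigh each class towards its most abundant gene, Col12a1 for the FACIT class and Col18a1 for the multiplexins. The counting intervals of type VI, of the fibrillar and FACIT classes, and of type IV do not overlap one another, except that fibrillar and FACIT collagens overlap. Such intervals leave out the spread among genes of a class and between clones, so they do not show that classes differ. Median log2 ratios of the genes that entered gave another order, with -1.98 for type VI, -1.80 for fibrillar, -1.37 for type IV and -0.53 for FACIT collagens.

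**Figure D1:**
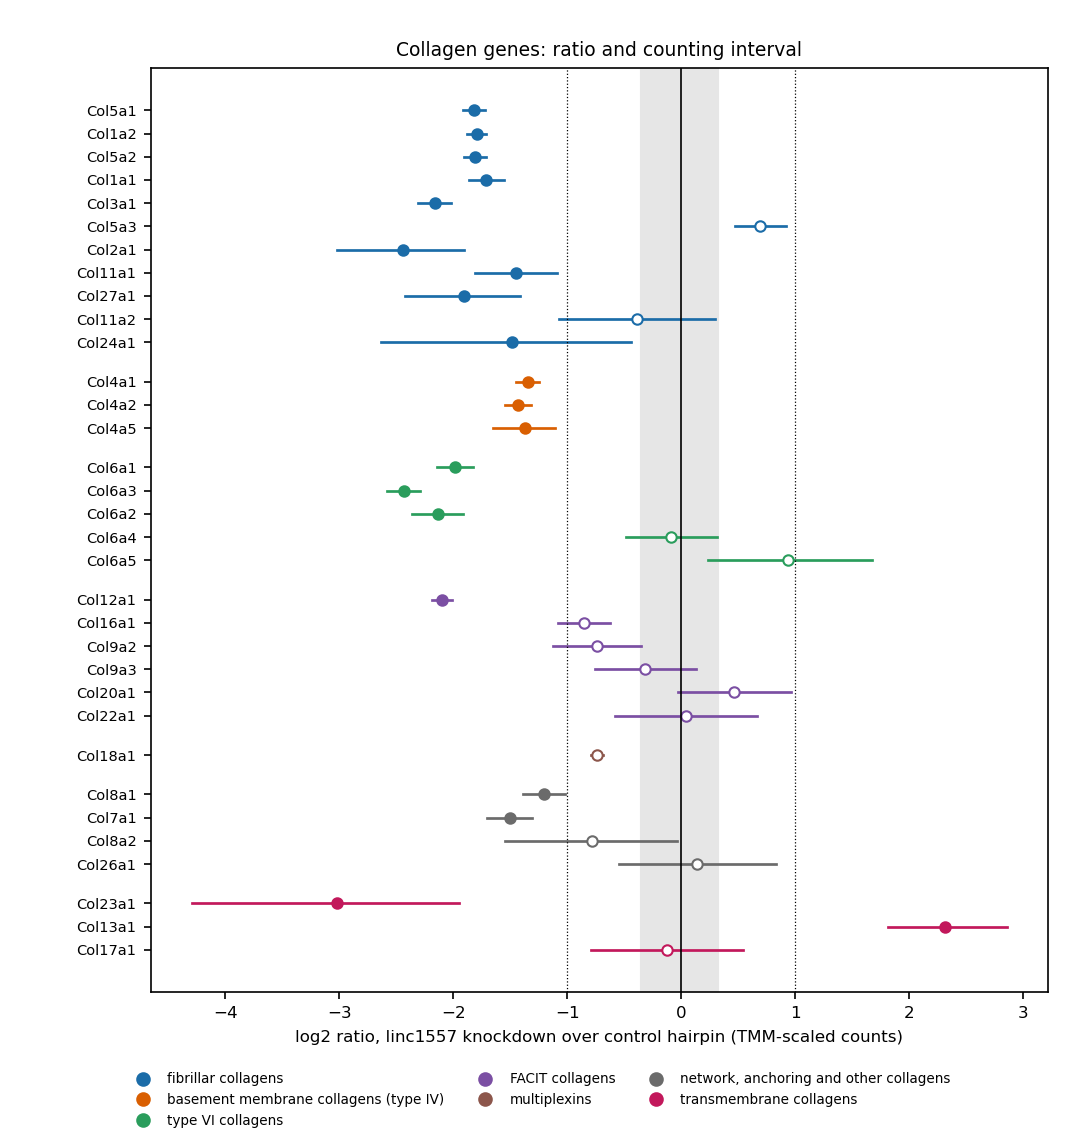
Log2 ratio of TMM-scaled counts, linc1557 knockdown over control hairpin, for the 33 collagen genes that entered, ordered by class and by control level. Points are ratios and lines are 95% counting intervals, filled points were called, dotted lines mark 2-fold, and the grey band runs between the quartiles of all genes (-0.35 to 0.33). Filled points lie left of the dotted line at -1 for 19 genes and right of 1 for Col13a1 alone.

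Promoter sequences are shown for 4 genes, chosen because they span the range of responses, after their values were seen: Col3a1 and Col5a1 were lower, Col5a3 lay above 1 without being called and Col13a1 was higher. They are the 250 bases before the start in RefSeq's GRCm38.p6 windows, 5′ to 3′ on the gene's strand, and capitals mark matches on either strand to 3 motifs. The first is CCAAT, which the factor NF-Y recognises in many promoters. The second is the TATA box, searched as TATAAA, which helps to place the start of transcription. The third is the core of the GC box to which SP1 family factors bind, searched as GGGCGG. None of these 4 stretches overlaps an annotated exon. The Col3a1 stretch is chr1:45311288-45311537 (+), that of Col5a1 is chr2:27886175-27886424 (+), that of Col5a3 is chr9:20815068-20815317 (-) and that of Col13a1 is chr10:61979109-61979358 (-).
Col3a1: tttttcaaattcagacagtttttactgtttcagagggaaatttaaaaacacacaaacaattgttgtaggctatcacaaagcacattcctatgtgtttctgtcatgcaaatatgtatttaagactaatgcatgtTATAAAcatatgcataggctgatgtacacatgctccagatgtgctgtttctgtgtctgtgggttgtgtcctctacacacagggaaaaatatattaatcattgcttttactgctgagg
Col5a1: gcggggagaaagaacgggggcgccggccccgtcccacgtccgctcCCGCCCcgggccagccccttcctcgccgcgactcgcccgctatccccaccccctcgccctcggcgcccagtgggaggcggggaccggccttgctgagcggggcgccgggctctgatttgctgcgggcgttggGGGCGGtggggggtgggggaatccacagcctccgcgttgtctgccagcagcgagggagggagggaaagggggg
Col5a3: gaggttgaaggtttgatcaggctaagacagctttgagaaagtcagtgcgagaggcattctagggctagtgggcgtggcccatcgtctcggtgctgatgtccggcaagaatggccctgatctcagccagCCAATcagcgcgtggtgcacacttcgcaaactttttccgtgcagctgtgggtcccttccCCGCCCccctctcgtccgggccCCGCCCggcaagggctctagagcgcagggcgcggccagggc
Col13a1: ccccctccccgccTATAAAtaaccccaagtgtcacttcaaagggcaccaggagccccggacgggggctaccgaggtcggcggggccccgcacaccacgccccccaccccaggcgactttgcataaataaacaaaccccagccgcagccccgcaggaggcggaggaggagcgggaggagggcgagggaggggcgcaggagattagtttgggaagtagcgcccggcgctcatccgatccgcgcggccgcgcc
Col3a1 and Col13a1, which moved in opposite directions, each held 1 TATAAA match and neither other motif. These matches begin at -117 (Col3a1) and -237 (Col13a1) from the start, and whether either places a start was not tested. The type V genes Col5a1 and Col5a3 both held the GC-box core. Windows of 300 bases, from 250 before to 50 after the start, were given for 35 of the 44 genes, 38 windows in all. The GC-box core was present in 60.5% of the collagen windows and 35.7% of all 32851 windows. The NF-Y motif was present in 34.2% and 37.4%, and the TATA box in 13.2% and 13.6%. By response, the GC-box core was in 12 of 16 windows of lower genes and 8 of 11 windows of genes not called, and the NF-Y motif in 6 and 5 of them. For genes that did not enter, the GC-box core was in 3 of 10 windows and the NF-Y motif in 2. The window of the higher gene held neither. The 32851 windows were not limited to expressed genes. Overlapping matches were counted separately, and a match is only a run of letters.

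All 11 fibrillar genes entered, Col24a1 through the control library alone, so that it had to differ. Of the 11, 9 were lower (9.48% of all genes) and 2 had no call, and the median log2 ratio was -1.80. Type I collagen, the main protein of bone, skin and tendon, is built from the products of Col1a1 and Col1a2. Col1a1 had 466 counts in the knockdown library, against 1434 in the control library, and was 3.27-fold lower (2.94 to 3.64). Col1a2 had 1668 counts in the knockdown library, against 5453 in the control library, and was 3.47-fold lower (3.29 to 3.67). The chains kept about the same proportion, since the level of Col1a1 divided by that of Col1a2, per length, was 0.529 (0.476 to 0.587) under knockdown and 0.498 (0.469 to 0.528) in the control library. Gene lengths are summed over all annotated exons, so a level per length is understated for a gene with long unused exons.

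Type V collagen nucleates type I fibrils, and its main chains come from Col5a1 and Col5a2. Col5a1 had a level of 5.35 RPKM in the knockdown library, against 18.9 RPKM in the control library, and was 3.53-fold lower (3.30 to 3.77). Col5a2 had 4.56 RPKM in the knockdown library, against 16.0 RPKM in the control library, and was 3.51-fold lower (3.28 to 3.75). These chains, from chromosomes 2 and 1, had nearly equal ratios, and their proportion per length was 1.17 (1.08 to 1.27) under knockdown and 1.18 (1.13 to 1.23) in the control library. Col5a3, the gene of a less widespread further chain of type V, went the other way without being called. It had 443 counts in the knockdown library, against 258 in the control library, a log2 ratio of 0.69 (0.47 to 0.92). Its level of 2.54 RPKM in the knockdown library was close to that of Col1a1 there, 2.77 RPKM, whereas in the control library the levels were 1.57 RPKM for Col5a3 and 9.06 RPKM for Col1a1.

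Col3a1 encodes the chain of type III collagen, which is found with type I in skin and vessels. It had 498 counts in the knockdown library, against 2102 in the control library, and was 4.48-fold lower (4.07 to 4.95), an interval above those of Col1a1, Col1a2, Col5a1 and Col5a2. Col3a1 and Col5a2 are neighbours on chromosome 1, with their ends 24.6 kb apart and facing each other. A small gene annotated as a miRNA, Gm47302, lies within Col3a1 on the same strand, and it had 5 counts under knockdown and 51 in the control library. Whether those reads were also counted for Col3a1 cannot be told from the table.

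Cartilage-type fibrillar collagens were weakly expressed. Col2a1, which encodes the main collagen of cartilage, had 34 counts in the knockdown library, against 174 in the control library, and was 5.44-fold lower (3.75 to 8.10). Col11a1, a type XI chain that joins type II fibrils, was 2.73-fold lower (2.13 to 3.51) from 92 counts under knockdown and 236 in the control library. Its partner Col11a2 had 35 counts under knockdown and 43 in the control library and was not called. Of the 8 chondrocyte markers, 2 entered, Matn3, called higher (1.88 RPKM under knockdown and 0.798 RPKM in the control library), and Acan, not called (0.240 and 0.322 RPKM). The summed level of the list was 2.42 RPKM under knockdown and 2.30 RPKM in the control library, but Matn3 carried most of it, and the other 7 genes summed to 0.539 RPKM under knockdown and 1.4998 RPKM in the control library. Among those that did not enter, Ucma had 1 count under knockdown and 10 in the control library, Matn1 had 2 and 12, and Comp had 6 and 14. Hapln1 had 2 counts under knockdown and 0 in the control library, too few for a ratio. Snorc, a chondrocyte marker, had 0 counts in both libraries, and Sox9 had 11 under knockdown and 22 in the control library. The part of such cells in the ratios of these genes was not tested. Col27a1 was 3.74-fold lower (2.66 to 5.36), from 44 counts under knockdown and 155 in the control library. Col24a1 was 2.80-fold lower (1.36 to 6.21), from 11 counts under knockdown and 29 in the control library.

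**Figure D2:**
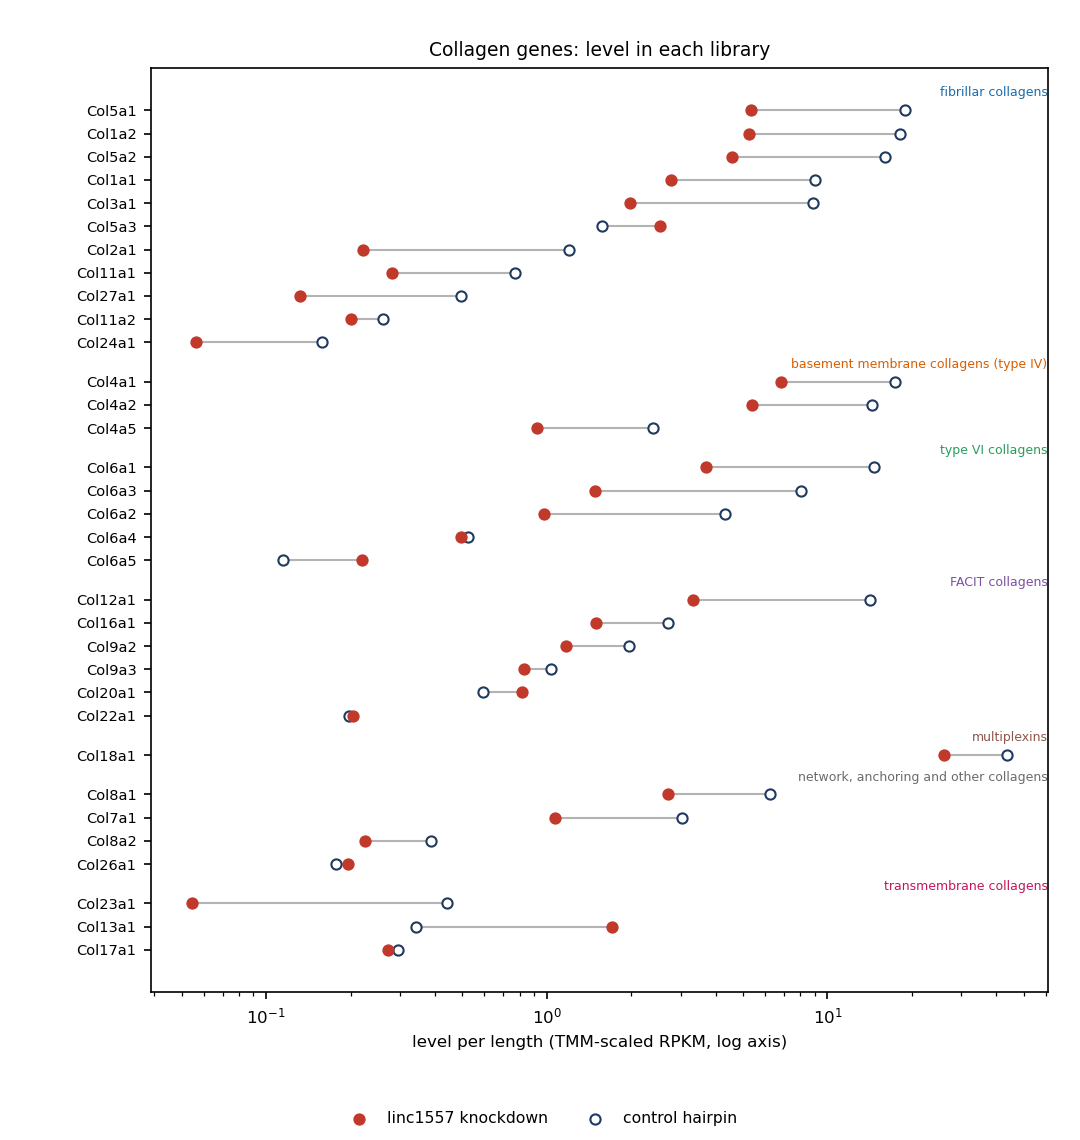
Level per length (TMM-scaled RPKM, log axis) of the 33 collagen genes that entered, in the knockdown library (filled) and the control library (open), by class. Col18a1 had the top level in both libraries, 26.1 RPKM under knockdown and 43.6 RPKM in the control library. The gap between points is wide for Col23a1, Col2a1, types I, III and XII, the main chains of type V and the classical chains of type VI. It is reversed for 6 genes, with the largest log2 ratio for Col13a1.

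Of the 6 type IV genes, 3 entered and all 3 were lower (9.48% of all genes), with ratios close to each other. Col4a1 and Col4a2 encode the chains of the basement membrane network found in nearly every tissue. Col4a1 had 1193 counts in the knockdown library, against 2859 in the control library, and was 2.55-fold lower (2.38 to 2.73). Col4a2 had 910 counts in the knockdown library, against 2310 in the control library, and was 2.70-fold lower (2.50 to 2.92). The genes stand head to head on chromosome 8 and their first exons share 22 bases, chr8:11312805-11312826 (+), printed because the annotated starts of both genes are its ends, with a match to the GC-box core in capitals.
Col4a1 and Col4a2 overlap: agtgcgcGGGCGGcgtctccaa
Per length, Col4a1 stood to Col4a2 as 1.27 (1.17 to 1.39) under knockdown and 1.20 (1.14 to 1.27) in the control library, so the proportion differed by less than the counting error.

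The other type IV pairs share the same head-to-head layout. Col4a5, whose human counterpart is the main gene of Alport syndrome, had 159 counts in the knockdown library, against 388 in the control library, and was 2.59-fold lower (2.15 to 3.14). Its partner Col4a6 did not enter, with 12 counts under knockdown and 20 in the control library. Col4a3 had 1 count under knockdown and 0 in the control library, and Col4a4 had 0 in both. Of the endoderm markers, 10 of 14 entered and 5 were lower (9.48% of all genes), or 7 with scaling by library totals. Their median log2 ratio was -1.04. Sox17, Gata6, Gata4 and Cubn entered through the control library alone and so had to differ, and of the 6 that reached the minimum in both libraries 2 were lower. The summed level of the list was 73.9 RPKM under knockdown and 87.8 RPKM in the control library. Without Lama1, Lamb1, Lamc1 and Nid1, which made up most of that sum, the other 10 genes summed to 2.84 RPKM under knockdown and 9.31 RPKM in the control library. This smaller sum leaves out Lama1 and Lamc1, whose ratios lay above 1. It keeps Sox17, Gata6, Gata4 and Cubn, which had to differ, and Pdgfra, which is also on the feeder list. Endoderm factor genes that entered were lower, while the direction of Sox7 lay within counting error. Sox17 had 2 counts under knockdown and 154 in the control library, Gata6 had 9 and 142, and Gata4 had 12 and 90. Sox7, which did not enter, had 15 counts under knockdown and 6 in the control library, with a log2 interval of -0.21 to 2.89. Laminin genes of the same list differed among themselves, since Lamb1 was 2.23-fold lower while Lama1 had a log2 ratio of 0.61 and Lamc1 0.18 and were not called. Ttr was at 0 counts in both libraries and Afp at 0 under knockdown and 1 in the control library. The part of endoderm-like cells in the type IV ratios was not tested.

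Type VI split into the classical chains, which were lower, and a cluster of later-described chains, which were not. Col6a1, Col6a2 and Col6a3 encode the chains of the common type VI heterotrimer. Col6a1 had 415 counts in the knockdown library, against 1543 in the control library, and was 3.95-fold lower (3.54 to 4.41). Col6a2, 85.2 kb from Col6a1 on chromosome 10, had 209 counts under knockdown and 866 in the control library and was 4.40-fold lower (3.78 to 5.14). Col6a3, on chromosome 1, had 457 counts under knockdown and 2327 in the control library and was 5.41-fold lower (4.89 to 5.99). Its proportion to Col6a1 shifted beyond counting error, while that of Col6a1 to Col6a2 did not. Col6a3 stood to Col6a1 per length as 0.403 (0.352 to 0.462) under knockdown and 0.552 (0.518 to 0.589) in the control library, and Col6a1 to Col6a2 as 3.77 (3.19 to 4.48) and 3.39 (3.11 to 3.69).

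Col6a4, Col6a5 and Col6a6 lie in a row on chromosome 9, from 105687809 to 106096783 on the minus strand, and encode chains that can stand in for the alpha3 chain. Col6a4 had 108 counts in each library, a log2 ratio of -0.09 (-0.49 to 0.31). Col6a5 had 53 counts under knockdown and 26 in the control library, a log2 ratio of 0.94 (0.24 to 1.68), and was not called. Col6a6 did not enter, with 20 counts under knockdown and 7 in the control library. The summed counts of this cluster were 181 under knockdown and 141 in the control library, against 1081 and 4736 for the classical trio, which was 4.65-fold lower (4.36 to 4.98).

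Of 9 FACIT genes, 6 entered and 1 was lower (9.48% of all genes). Col12a1, which encodes a collagen of dense connective tissue that binds type I fibrils, had 1292 counts in the knockdown library, against 5206 in the control library, and was 4.28-fold lower (4.03 to 4.55). The level of Col12a1 was 3.31 RPKM under knockdown and 14.2 RPKM in the control library, and it ranked 7455th under knockdown and 2580th in the control library of 13198 nuclear protein-coding genes that entered. Col16a1 had 260 counts under knockdown and 442 in the control library, 1.81-fold apart (1.55 to 2.11), and was not called. Col9a2 and Col9a3, chains of cartilage type IX, had 93 and 82 counts in the knockdown library, against 146 and 96 in the control library, and were not called. Exons of Col9a3 overlap those of Tcfl5 on the other strand over 234 bases, and Tcfl5 had 1151 counts under knockdown and 1145 in the control library, so reads of Col9a3 are uncertain. Col20a1, which overlaps BX649560.1, and Col22a1 had log2 ratios of 0.47 and 0.04. Col14a1, Col9a1 and Col19a1 did not enter, with at most 14 counts in a library.

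Col18a1, a multiplexin of basement membranes whose cleaved end is endostatin, was the most abundant collagen transcript. It had 4696 counts in the knockdown library, against 7382 in the control library, and was 1.67-fold apart (1.61 to 1.73), so it was not called. The gene ranked 1369th under knockdown and 735th in the control library among nuclear protein-coding genes. Because most other collagens differed more, Col18a1 took 28.2% (27.5 to 28.9) of collagen counts under knockdown and 17.1% (16.8 to 17.5) in the control library. Fibrillar collagens took 33.5% (32.8 to 34.2) under knockdown and 40.5% (40.0 to 40.9) in the control library, and type VI 7.58% (7.18 to 7.99) and 11.3% (11.0 to 11.6). Type IV kept nearly the same share, with 13.7% (13.1 to 14.2) under knockdown and 12.9% (12.6 to 13.3) in the control library. The other multiplexin gene, Col15a1, did not enter, with 4 counts under knockdown and 23 in the control library.

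**Figure D3:**
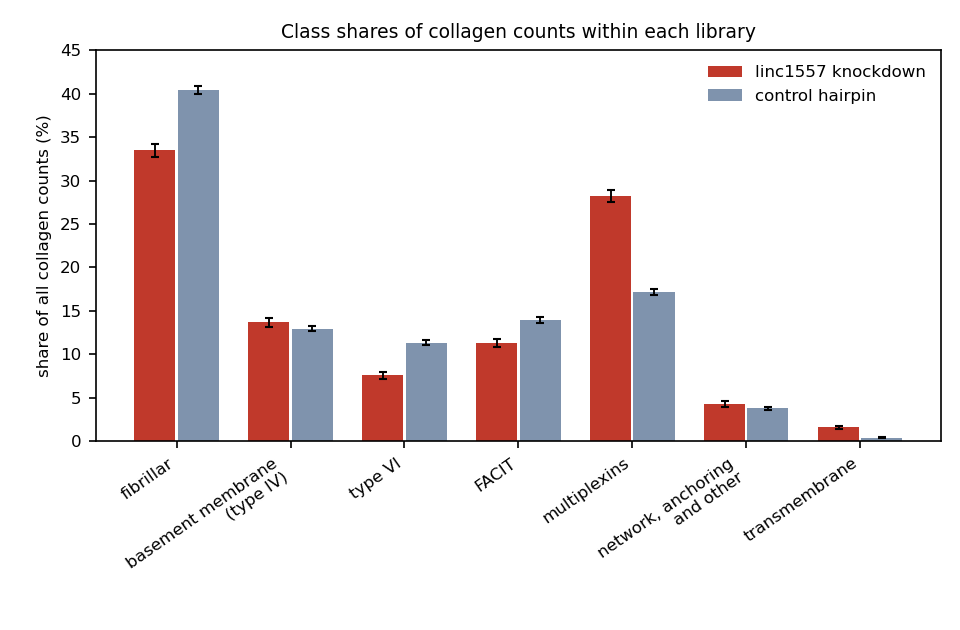
Share of all collagen counts taken by each class within the knockdown library (red, left) and the control library (blue-grey, right), with 95% Wilson intervals as error bars. The multiplexin share, nearly all of it Col18a1, was 28.2% under knockdown and 17.2% in the control library, while the fibrillar share was 33.5% and 40.5%.

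Among network-forming, anchoring and other collagens, 4 of 6 entered and 2 were lower (9.48% of all genes). Col7a1 encodes the anchoring fibril of the skin's basement membrane, and it had 281 counts in the knockdown library, against 751 in the control library, 2.84-fold lower (2.47 to 3.27). Col8a1, a short-chain collagen of vessels and the cornea, had 354 counts in the knockdown library, against 769 in the control library, and was 2.31-fold lower (2.03 to 2.63). Its partner Col8a2 (26 counts in the knockdown, 42 in the control library) and Col26a1 (41 and 35) were not called. Col10a1, a marker of hypertrophic cartilage, and Col28a1 did not enter, with 2 and 3 counts in the knockdown library, against 20 and 15 in the control library.

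Among the collagen genes that entered, the transmembrane class held the widest spread, from the lowest ratio to the highest. Col13a1, which encodes a cell-surface collagen of adhesion sites and the neuromuscular junction, had 201 counts in the knockdown library, against 38 in the control library, and was 4.98-fold higher (3.51 to 7.24). The level of Col13a1 (ENSMUSG00000058806, chromosome 10, 61838236 to 61979108) was 1.70 RPKM under knockdown and 0.342 RPKM in the control library. Col23a1 had 8 counts in the knockdown library, against 61 in the control library, and was 8.10-fold lower (3.86 to 19.6). It entered through the control library alone and so had to differ, and its interval overlaps those of Col6a3 and Col2a1. Col10a1, which did not enter, had a log2 ratio of -3.41, below the -3.02 of Col23a1. Col17a1, a hemidesmosome component of epithelia, had 40 counts under knockdown and 41 in the control library and was not called, and Col25a1 did not enter, with 13 and 18 counts.

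Genes that act on collagen inside the cell differed less than the collagens did. Of 14 genes of the collagen hydroxylation and glycosylation list that entered, 2 were lower (9.48% of all genes) and none higher (4.68%). The other 12 had no call, and the median log2 ratio was -0.29. The prolyl 4-hydroxylase subunit gene P4ha3 was 3.00-fold lower, with 69 counts under knockdown and 195 in the control library. The prolyl 3-hydroxylase gene P3h2 was 10.6-fold lower, with 4 counts under knockdown and 40 in the control library, and it entered through the control library alone and so had to differ, which leaves P4ha3 as the 1 lower gene of the 13 that reached the minimum in both. Ppib and P4hb, the most abundant genes of the list, encode a prolyl isomerase and the disulfide isomerase subunit of prolyl 4-hydroxylase, both with many other clients, and had log2 ratios of -0.33 and -0.32. None of the 15 folding and export genes was called, with a median of -0.24. Serpinh1, which encodes the collagen chaperone HSP47, had a log2 ratio of -0.88, with 24.4 RPKM under knockdown and 44.9 RPKM in the control library, and Sparc, which encodes a collagen-binding matricellular protein, had -0.75.

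By median log2 ratio, genes that act on collagen outside the cell stood nearer to the collagens. Summed counts were 1.53-fold lower for processing and cross-linking genes and 1.72-fold lower for receptor genes, against 2.75-fold for the collagens. For the hydroxylation and glycosylation genes and the folding and export genes they were 1.15-fold and 1.22-fold lower. Of 11 processing and cross-linking genes that entered, 8 were lower (9.48% of all genes) and 3 had no call, and their median log2 ratio was -1.33. The lysyl oxidase family, which cross-links fibrils, had Loxl3 3.74-fold lower, Loxl4 3.05-fold lower, Loxl1 2.80-fold lower and Loxl2 2.52-fold lower, while Lox itself had a log2 ratio of -0.71 and was not called. The procollagen proteinase genes Tll1 and Adamts14 were 3.39-fold and 2.84-fold lower. Bmp1, which encodes the main C-proteinase, was 2.00-fold lower, and its call ended with DESeq2 size factors, which left 7. Pcolce, whose product enhances that proteinase, had 2331 counts under knockdown and 1295 in the control library, a log2 ratio of 0.76. Of 7 collagen receptor genes that entered, 5 were lower (9.48% of all genes) and 1 was higher (4.68%). The integrin alpha gene Itga11 was 4.63-fold lower (28 counts in the knockdown, 122 in the control library), the discoidin receptor genes Ddr1 and Ddr2 were 3.48-fold and 2.84-fold lower, and Mrc2, which encodes a collagen uptake receptor, was 3.47-fold lower. Itga1, the gene of a type IV-binding integrin chain, was 3.10-fold lower, from 50 counts under knockdown and 146 in the control library. Itga2, which encodes another collagen-binding integrin chain, was higher, with 97 counts under knockdown and 35 in the control library, while the shared chain Itgb1 had a log2 ratio of -0.63.

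Markers of feeder fibroblasts other than collagens were lower in part. Of 20, all entered, Fap through the control library alone. Of these markers, 10 were lower (9.48% of all genes) and none higher (4.68%), and 13 were lower with scaling by library totals. The median log2 ratio of the markers was -1.03. Their summed level was 281 RPKM under knockdown and 532 RPKM in the control library, and none of them was at 0 in either library. The ratios spread widely, from -2.66 for Timp3 to 0.26 for Dcn, a proteoglycan gene of fibroblast matrix, and Fn1 and Vim, which stem cells also express, had -0.18 and -0.35. The receptor genes Pdgfra and Pdgfrb had 1.23 and 1.58 RPKM in the knockdown library, against 2.40 and 3.75 RPKM in the control library. The part of feeder cells in the collagen ratios was not tested.

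**Figure D4:**
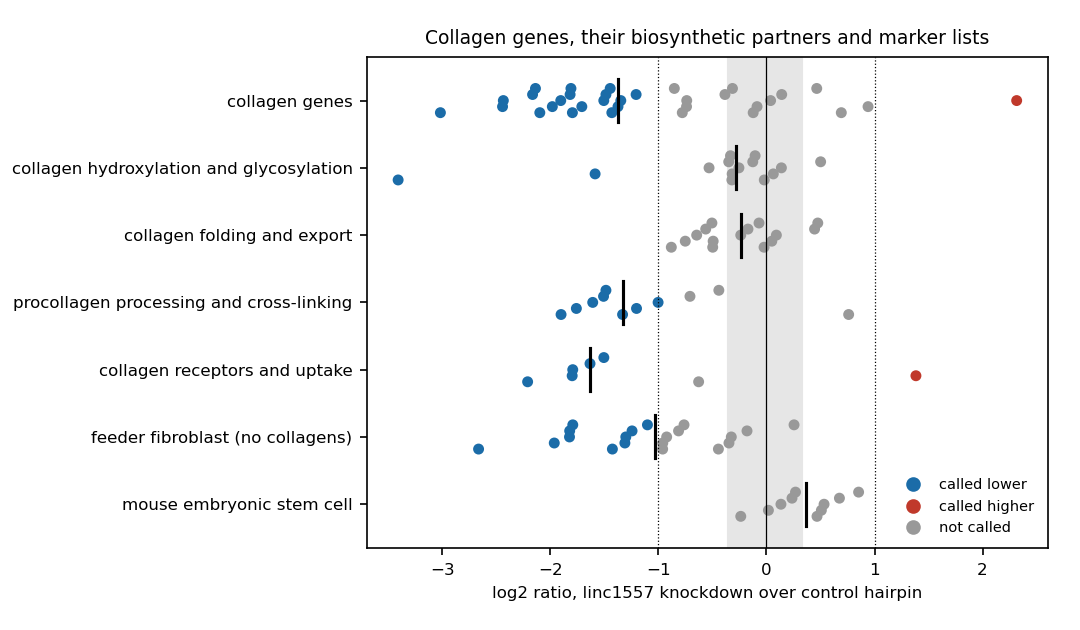
Log2 ratio, linc1557 knockdown over control hairpin, of each gene that entered from the collagen family, 4 lists of collagen partners, feeder fibroblast markers without collagens and stem cell markers. Each point is a gene, black bars are medians, dotted lines mark 2-fold and the grey band runs between the quartiles of all genes. Medians lie at -1.37 for collagens, -1.33 for processing and cross-linking and -1.63 for receptors. They lie at -0.29 for the hydroxylation and glycosylation genes and -0.24 for the folding and export genes.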

How the data were processed

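The deposited table holds raw read counts per gene for each library and a gene length in bases, per the file headers. Per the submitters' processing notes, the authors used Trim Galore, HISAT2, featureCounts and DESeq with builds mm10 and GRCm38; no source used here gives versions, annotation release or strand setting, so reads of overlapping or antisense genes cannot be told apart. Symbols and coordinates came from GENCODE M21, which matched 46488 of 46983 rows; the 495 others held 0.119% of knockdown and 0.128% of control counts. Gene lengths equalled that annotation's for 35 of 44 members. TMM factors came from edgeR 4.0.16 (R 4.3.3) and were 0.960 (knockdown) and 1.04 (control); ratios, Clopper-Pearson and Wilson intervals in Python 3.11.15 with scipy 1.17.1. edgeR's quasi-likelihood test cannot be run with 1 library per group. Counts of 0 were raised to a floor of 3, genes with at most 3 counts in both libraries got no ratio. Members, lists and classes were chosen with earlier results of these data known. Called collagens and the leading gene of each class are given with counts or level and ratio. Proportions are given for the fixed chain pairs except Col8a1 to Col8a2, Col9a2 to Col9a3 and Col4a5 to Col4a6. In partner lists up to 4 called and the 2 most abundant genes are given. Loxl1, Loxl2, Bmp1, Ddr2, Itga2, overlapping genes and single markers were chosen after their values were seen. Protein sequences were not used here. Alternatives were other scalings (library totals, DESeq2 1.42.0), filters, a prior count, thinning, centring and fold thresholds.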

Additional observations from a re-analysis of the deposited data

How the results depend on the processing

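All 286 single-gene values of the collagens that entered kept their call under the other scalings, filters, prior count, thinning and centrings, and all but those of Col22a1, whose log2 ratio lay between -0.08 and 0.08 and was never called, kept their direction. The count of lower collagens stayed at 19 under each of these except no filter (23) and a filter at 5 CPM (17 of 22). Scaling by library totals shifted the median of all genes by -0.12 and gave medians of -1.91 for fibrillar collagens and -0.86 for the multiplexin, which centring by expression put at -0.81. With no filter, counts were 2 higher collagens (1 of type VI), 2 lower FACIT genes, 1 lower multiplexin and 4 lower network, anchoring and other genes, and medians were -1.68 for multiplexins and -1.03 for type VI. At 5 CPM the collagen median was -1.61, no transmembrane gene was lower (0) and their median was 2.32, from Col13a1 alone; 1 hydroxylation gene was lower and 0 receptors were higher. A 1.5-fold threshold gave 3 higher collagens (1 fibrillar, 1 of type VI), 3 lower FACIT genes, 1 lower multiplexin, 3 lower folding genes and 1 higher processing gene. A 4-fold threshold gave 6 lower collagens (2 fibrillar, 0 of type IV, 0 network and other), with 1 lower hydroxylation gene, 0 lower processing genes, and 1 lower and 0 higher receptors. The call of Bmp1 ended with DESeq2 size factors, protein-coding TMM or a prior count, leaving 7 processing genes. No paired analysis was possible because each group had 1 library, and for the same reason no library could be left out. Depth limits the weakly expressed genes most, as for Col24a1, whose interval ran from 1.36 to 6.21.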
